A study of Mus musculus with 10 samples.

Results

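The 10 genes described here were the erythroid transcription factors Gata1, Gata2, Klf1, Tal1, Nfe2, Zfpm1, Gfi1b, Lmo2 and Bcl11a, and Epor, the receptor for erythropoietin. They were taken by gene symbol after transcript values had been summed per gene, and they are 10 of the 35705 genes in the table. All 10 were among the 13841 genes that had a mean of at least 1 TPM (a length-adjusted share of a library's transcripts, scaled to a fixed total) and were tested. The libraries were made from total RNA of the medial knee cartilage cap of single mice, 5 wild-type controls and 5 null for the Mir324 gene, which makes the microRNA miR-324 (Mir324-null), for which the labels name no Cre or tissue restriction. Mir324 was not among the genes matched here, so the genotype labels were not checked on its level. The mice were untreated, and their strain, age, sex, litter and sequencing batch were not given in the labels. Nothing beyond 1 mouse per library was stated on how the animals were matched.

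Red blood cells form in the marrow under a small network of DNA-binding proteins. GATA2 acts in stem and progenitor cells and is replaced at many sites by GATA1 as erythroid cells mature. GATA1, with its cofactor FOG1 (made from Zfpm1), and a complex of TAL1 and LMO2 switch on globin, haem and membrane genes, together with KLF1, and erythropoietin keeps these precursors alive through EPOR. Several of the factors also serve megakaryocytes, mast cells or progenitors, so none of them marks red cell precursors alone.

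The labels name the cell type as chondrocyte. Of 9 cartilage chondrocyte markers, 7 passed the filter and 2 (Col9a1 and Matn3) did not. The summed level of the 9 ran from 1958 to 6196 TPM in wild-type and from 1646 to 2949 TPM in Mir324-null libraries. Prg4 was the largest part of it, with means of 2902 ± 1492 and 1737 ± 411 TPM, while Col2a1 was at 91.4 ± 31.9 and 59.0 ± 24.1 TPM. Haemoglobin transcripts held 15.5% ± 3.93 of all TPM in wild-type and 20.6% ± 4.21 in Mir324-null libraries (SD, n = 5 each, exact permutation p = 0.0952, two-sided). Summed neutrophil markers ran from 55756.5 to 109433 TPM in wild-type and from 54782.4 to 111736 TPM in Mir324-null libraries. Summed osteoblast and osteocyte markers ran from 6225 to 14721 TPM in wild-type and from 3525 to 7315 TPM in Mir324-null libraries. The libraries thus held RNA of red cells, neutrophils and bone cells beside cartilage RNA. In such bulk tissue, fewer or more cells of a type and less or more RNA per cell cannot be told apart. Sequencing depth cannot be read from TPM values and is unknown.

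The DNA before the transcription start is shown for Gata1, Tal1 and Epor, whose levels did not overlap between genotypes, and for Klf1, whose levels were only weakly correlated with those of the other members. Each window runs from 250 bases before to 50 bases after the RefSeq start (GRCm38.p6), 5′ to 3′ on the gene's strand. The windows are chrX:7967861-7968160 (minus strand) for Gata1, chr4:115056176-115056475 (plus) for the upstream Tal1 start, chr9:21963527-21963826 (minus) for Epor and chr8:84901732-84902031 (plus) for Klf1. Capitals mark GATA motifs (the letters AGATAA or their variant AGATAG, and the same variants beginning with T, namely TGATAA as well as the form TGATAG) and CACCC boxes, the letters bound by GATA and KLF proteins, on either strand.
Gata1: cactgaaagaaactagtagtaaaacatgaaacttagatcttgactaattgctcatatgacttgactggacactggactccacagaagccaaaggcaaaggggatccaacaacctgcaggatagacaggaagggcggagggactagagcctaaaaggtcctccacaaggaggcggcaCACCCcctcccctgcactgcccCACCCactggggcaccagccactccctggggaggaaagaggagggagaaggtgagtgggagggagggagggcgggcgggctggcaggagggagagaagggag
Tal1: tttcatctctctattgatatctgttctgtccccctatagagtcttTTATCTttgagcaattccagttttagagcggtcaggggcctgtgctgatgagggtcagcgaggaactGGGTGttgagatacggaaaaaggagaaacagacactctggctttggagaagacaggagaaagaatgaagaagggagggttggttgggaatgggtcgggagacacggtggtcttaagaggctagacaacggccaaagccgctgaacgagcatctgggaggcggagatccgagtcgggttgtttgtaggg
Epor: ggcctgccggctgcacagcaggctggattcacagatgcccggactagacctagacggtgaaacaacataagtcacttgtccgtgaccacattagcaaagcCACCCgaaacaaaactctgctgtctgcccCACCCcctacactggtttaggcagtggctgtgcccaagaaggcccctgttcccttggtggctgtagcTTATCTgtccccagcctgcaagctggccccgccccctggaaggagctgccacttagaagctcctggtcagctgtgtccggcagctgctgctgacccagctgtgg
Klf1: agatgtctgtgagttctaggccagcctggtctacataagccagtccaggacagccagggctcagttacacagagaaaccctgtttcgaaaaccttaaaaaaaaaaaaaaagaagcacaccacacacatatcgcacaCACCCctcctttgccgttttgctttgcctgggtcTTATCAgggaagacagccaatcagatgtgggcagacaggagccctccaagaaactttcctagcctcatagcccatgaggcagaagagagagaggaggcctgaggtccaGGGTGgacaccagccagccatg
Counted from the RefSeq start site, a GATA motif began at base -205 in Tal1, -54 in Epor and -80 in Klf1, and the Gfi1b window held one at base -120. No GATA motif was found in the windows of Gata1, Gata2, Zfpm1 or Bcl11a, nor at the downstream Tal1 start. Among all 32851 mouse promoter windows of this length, 29.8% held such a motif and 57.5% held CACCC. A match describes the letters only.

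The missing microRNA can be compared with the transcripts through its seed, bases 2 to 8, shown in capitals for both mature strands of mouse miR-324 (RefSeq, GRCm38.p6).
miR-324-5p: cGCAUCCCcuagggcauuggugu
miR-324-3p: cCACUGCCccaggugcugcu
The 7-base complement of the miR-324-5p seed is GGGATGC, and that of the miR-324-3p seed is GGCAGTG. For each gene, both were looked for in whichever annotated 3′ UTR was longest. Gata2 was the only member with a match: its 3′ UTR of 1538 bases held 2 complements of the miR-324-3p seed, the first at base 1109, in capitals here.
Gata2 site: gacagggggcaggcaGGCAGTGg
Of 12601 genes with a 3′ UTR, 8.5% held the miR-324-5p complement and 15.4% the miR-324-3p complement. The other 9 members held neither in the 3′ UTR searched, and a sequence match does not show that a site is used.

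All 10 genes had a higher mean in Mir324-null than in wild-type cartilage caps, and none passed the test across all genes. With limma on log2(TPM + 1), 0 of the 10 had a Benjamini-Hochberg adjusted p under 0.05, as did 0 of the 13841 genes tested (0%). The smallest adjusted p of a member was 0.277, which was also the smallest of any gene. At an unadjusted p under 0.05 there were 8 members, all higher in Mir324-null, while 4.28% of all genes tested were higher and 7.3% lower at that level. The balance over all genes moved with the scaling, from 592 higher and 1011 lower to 875 and 888 with median ratio scaling, 884 and 929 with quantile normalization and 1216 and 577 after rescaling without haemoglobin genes. Under each of these 3 scalings all 10 members were higher, 9 of them at an unadjusted limma p under 0.05. Gata1, Tal1, Lmo2 and Epor showed no overlap between genotypes, against 0.881% of all genes without overlap and higher and 1.06% without overlap and lower. The median difference of the 10 genes was 0.51 on the log2(TPM + 1) scale, beside -0.045 over all genes tested. These 10 genes lie in 1 network and in the same libraries, so they are not 10 separate observations.

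**Figure D1:**
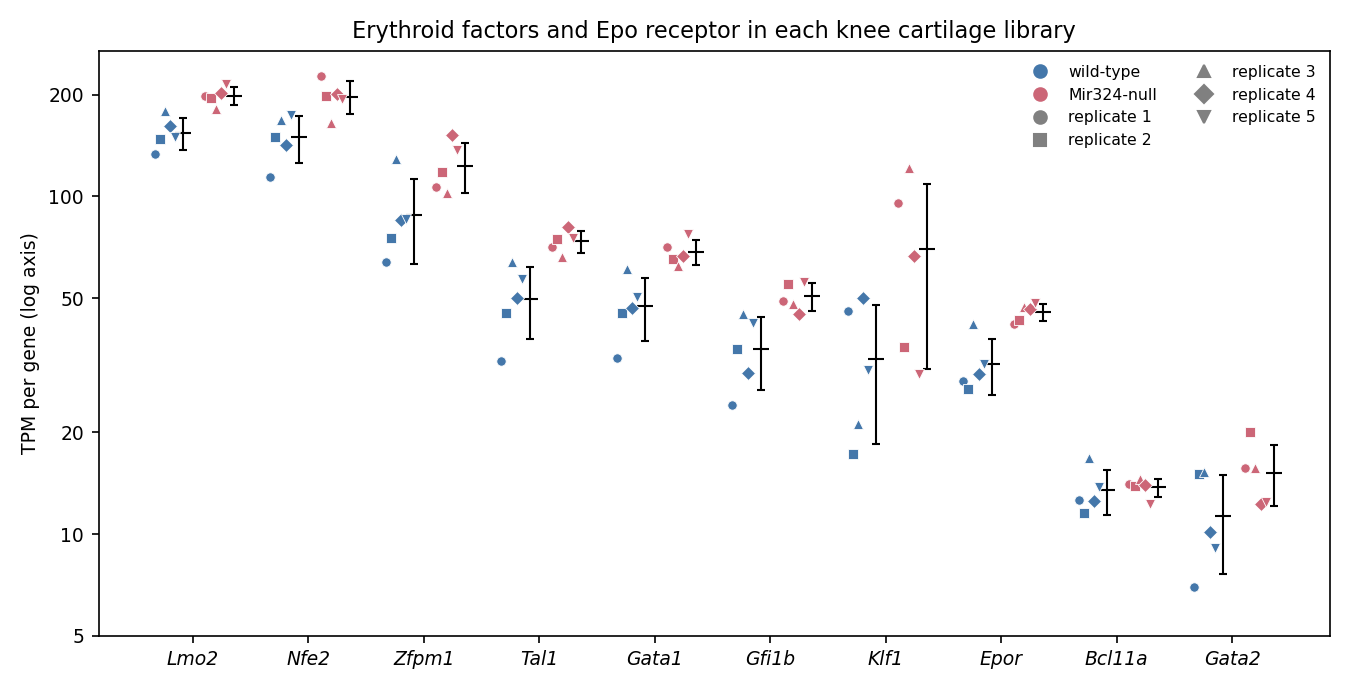
TPM per gene on a log axis for the 10 genes, ordered by wild-type mean. Each point is 1 mouse, with wild-type in blue and Mir324-null in red and the marker shape giving the replicate number; black bars are the mean ± SD (n = 5). Gata1, Tal1, Lmo2 and Epor do not overlap between genotypes, and Klf1 has the widest spread.

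In wild-type cartilage the level per length ran from Lmo2, 154 ± 16.8 TPM, to Gata2, 11.3 ± 3.69 TPM (SD, n = 5). Lmo2 and Nfe2, next in order, overlapped in both genotypes, and Lmo2 was the higher in 6 of 10 libraries. Zfpm1 lay above Tal1, and Epor above Bcl11a, without overlap in either genotype. Tal1 and Gata1 overlapped in both genotypes, as did Gfi1b and Klf1, Klf1 and Epor, and Bcl11a and Gata2.

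Gata1 (ENSMUSG00000031162, chrX:7959260-7978071, minus strand, GRCm38), the factor without which red cell precursors do not mature, was at 33.3, 45.1, 61.0, 46.8 and 50.2 TPM in wild-type replicates 1 to 5. In Mir324-null replicates 1 to 5 it was at 71.0, 65.2, 62.0, 66.7 and 77.3 TPM. The highest wild-type library, replicate 3, was just below the lowest Mir324-null library, also a replicate 3. The means were 47.3 ± 9.97 and 68.4 ± 5.91 TPM, a difference of 0.55 on the log2(TPM + 1) scale (SE 0.139). Its exact permutation p was 0.00794, the smallest that 5 against 5 mice allow, and its limma adjusted p was 0.283.

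Gata2 (ENSMUSG00000015053, chr6:88193891-88207032, plus strand), the related factor of stem, progenitor and mast cells, was at 6.95, 15.1, 15.2, 10.2 and 9.11 TPM in wild-type replicates 1 to 5. It was at 15.6, 19.99, 15.7, 12.3 and 12.4 TPM in the Mir324-null replicates. The genotypes overlapped: Mir324-null replicates 4 and 5 lay below wild-type replicates 2 and 3. The difference was 0.43 on the log2(TPM + 1) scale (95% interval -0.025 to 0.89, limma adjusted p = 0.458, exact permutation p = 0.0952), and it was 0.29 without wild-type replicate 1.

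The ratio of the paralogs within a library was read as log2(TPM + 1) of Gata1 minus that of Gata2. It was 2.001 ± 0.304 in wild-type and 2.12 ± 0.347 in Mir324-null libraries (SD, n = 5 each). The difference of 0.115 was smaller than the spread between mice (exact permutation p = 0.603), and it was -0.0046 without wild-type replicate 2. Gata1 was between 2.996 and 6.21 times Gata2 in TPM in every library.

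Zfpm1 (ENSMUSG00000049577, chr8:122282141-122337251, plus strand) encodes FOG1, the cofactor that binds GATA1. It was at 64.0, 75.4, 129, 85.0 and 85.7 TPM in the wild-type replicates and at 107, 118, 103, 152 and 137 TPM in the Mir324-null replicates. Wild-type replicate 3 lay above 3 of the Mir324-null mice, and the other 4 wild-type mice lay below all of them. The difference was 0.51 on the log2(TPM + 1) scale (SE 0.175, limma adjusted p = 0.338, exact permutation p = 0.0476).

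Gfi1b (ENSMUSG00000026815, chr2:28609450-28621982, minus strand), a repressor needed for red cells and platelets, was at 24.1, 35.2, 44.9, 30.0 and 42.0 TPM in the wild-type replicates. It was at 49.1, 55.1, 48.1, 44.7 and 55.7 TPM in the Mir324-null replicates. The only overlap was that of wild-type replicate 3 with Mir324-null replicate 4, by a small margin. The difference was 0.54 on the log2(TPM + 1) scale (SE 0.155, limma adjusted p = 0.308, exact permutation p = 0.0159).

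Tal1 (ENSMUSG00000028717, chr4:115056426-115071755, plus strand), the helix-loop-helix protein of the complex, was at 32.5, 45.1, 63.8, 50.05 and 56.9 TPM in the wild-type replicates. It was at 70.6, 74.6, 65.996, 81.0 and 75.5 TPM in the Mir324-null replicates. Every Mir324-null mouse lay above every wild-type mouse. The means of 49.7 ± 11.9 and 73.5 ± 5.61 TPM differed by 0.59 on the log2(TPM + 1) scale (SE 0.155, limma adjusted p = 0.287, exact permutation p = 0.00794).

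Lmo2 (ENSMUSG00000032698, chr2:103957986-103981878, plus strand), the bridging protein that joins TAL1 to GATA factors, was at 134, 148, 179, 161 and 149.8 TPM in the wild-type replicates. It was at 198, 195, 181, 203 and 215 TPM in the Mir324-null replicates. The groups did not overlap, and the gap between the nearest mice, again both numbered 3, was small. The difference was 0.36 on the log2(TPM + 1) scale (SE 0.0895, limma adjusted p = 0.277, exact permutation p = 0.00794), with the lowest relative spread in wild-type of the 10 genes, an SD of 10.9% of the mean.

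Nfe2 (ENSMUSG00000058794, chr15:103248212-103258403, minus strand), the p45 subunit of a globin and platelet gene activator, was at 114, 149.9, 168, 142 and 174 TPM in the wild-type replicates. It was at 227, 198, 165, 201 and 195 TPM in the Mir324-null replicates. Mir324-null replicate 3 lay below wild-type replicates 3 and 5, and the other Mir324-null mice lay above all wild-type mice. The difference was 0.40 on the log2(TPM + 1) scale (SE 0.123, limma adjusted p = 0.316, exact permutation p = 0.0238).

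Klf1 (ENSMUSG00000054191, chr8:84901928-84905291, plus strand), the activator of adult beta-globin, was at 45.9, 17.3, 21.1, 50.01 and 30.6 TPM in the wild-type replicates. It was at 95.4, 35.8, 121, 66.4 and 29.8 TPM in the Mir324-null replicates. Mir324-null replicates 1, 3 and 4 lay above all wild-type mice, while Mir324-null replicate 5, the highest of its genotype for Gata1, Gfi1b, Lmo2 and Epor, was the lowest for Klf1. The means were 33.0 ± 14.6 and 69.7 ± 38.9 TPM, so the SD was 44.1% and 55.8% of the mean, against at most 32.7% and 20.6% for the other 9 genes. These are values of the 1 Klf1 transcript in the annotation used, and the level and spread of Klf1 may be incomplete: a transcript outside that annotation, picked by eye after values were seen, ran opposite to it across the 10 libraries (r = -0.727), and the SD of their sum was 22.4% and 11.2% of its mean. Values that run opposite tend to spread less in their sum, whatever their gene. Whether that transcript belongs to Klf1 was not tested. The difference of 0.98 on the log2(TPM + 1) scale was the largest of the 10 and the least precise (95% interval 0.090 to 1.86, limma adjusted p = 0.391, exact permutation p = 0.0794). Its unadjusted limma p of 0.0336 passed 0.05 when any of 6 libraries was left out: it was 0.0859, 0.0766 and 0.0522 without wild-type replicates 2, 3 and 5, and 0.0808, 0.0873 and 0.0587 without Mir324-null replicates 1, 3 and 4.

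Bcl11a (ENSMUSG00000000861, chr11:24078056-24174123, plus strand), the repressor of embryonic globin genes, which is also made in B cells and plasmacytoid dendritic cells, was at 12.6, 11.5, 16.8, 12.5 and 13.8 TPM in the wild-type replicates. It was at 14.0, 13.9, 14.5, 14.0 and 12.3 TPM in the Mir324-null replicates. All Mir324-null mice lay within the wild-type range. The difference was 0.036 on the log2(TPM + 1) scale (95% interval -0.21 to 0.28, limma adjusted p = 0.948), and it was -0.014 without wild-type replicate 2.

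Epor (ENSMUSG00000006235, chr9:21958897-21963506, minus strand) was at 28.4, 27.0, 41.9, 29.7 and 31.9 TPM in the wild-type replicates. It was at 42.0, 43.2, 47.0, 46.3 and 48.3 TPM in the Mir324-null replicates. Wild-type replicate 3 stood close below the Mir324-null mice and the other 4 wild-type mice stood well below them. The means of 31.8 ± 5.93 and 45.4 ± 2.66 TPM differed by 0.51 on the log2(TPM + 1) scale (SE 0.116), and Epor had the smallest unadjusted limma p of the 10 genes, 0.000892 (adjusted p = 0.277, exact permutation p = 0.00794).

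**Figure D2:**
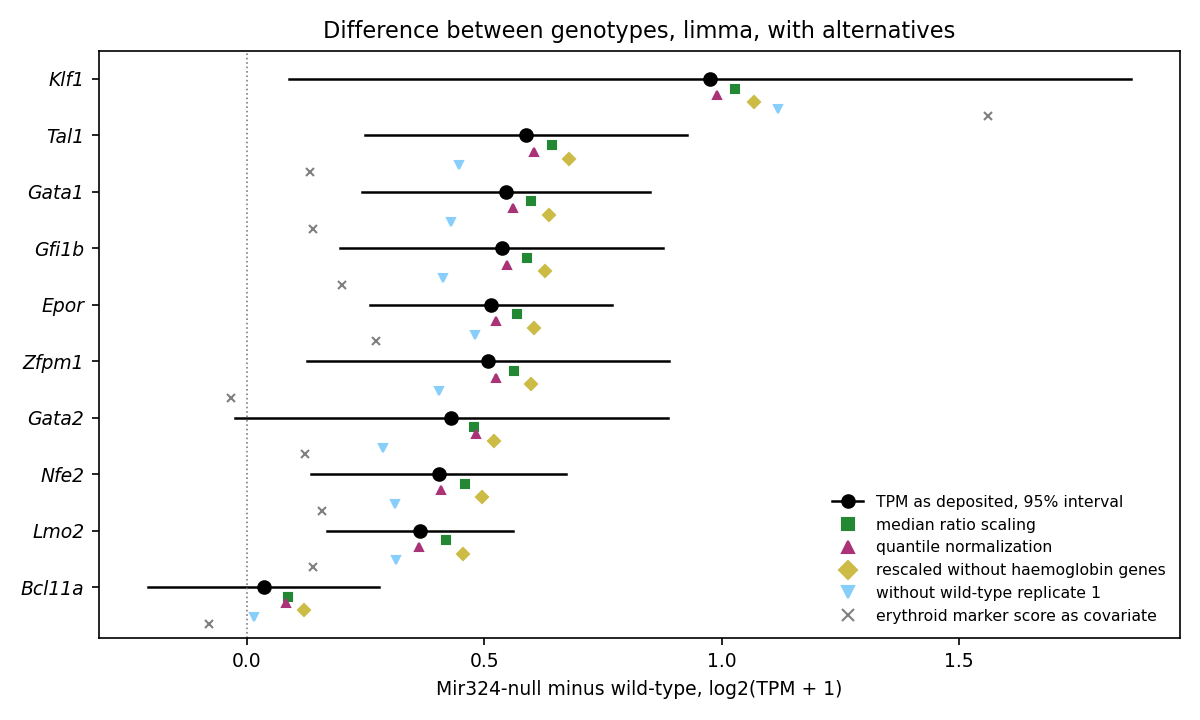
Difference between genotypes on the log2(TPM + 1) scale for each gene, with the limma estimate on TPM as deposited (black circle) and its 95% interval (line). Coloured markers are 3 other scalings and the fit without wild-type replicate 1. The cross is the fit with the mean of erythroid markers and GATA1 or KLF1 target genes as a covariate. With that covariate every gene but Klf1 moves towards 0 or past it.

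The same wild-type mice were at the extremes for most of the genes. Wild-type replicate 3 was the highest wild-type library for 8 of the 10 genes, all but Klf1 and Nfe2. Wild-type replicate 1 was the lowest for 7, all but Klf1, Bcl11a and Epor. Without wild-type replicate 1 the median difference of the 10 genes was 0.41 on the log2(TPM + 1) scale, and without wild-type replicate 3 it was 0.62.

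The levels of most of the 10 genes were correlated across the 10 libraries. Among Gata1, Tal1, Lmo2, Gfi1b, Nfe2, Zfpm1 and Epor, a subset picked after the values were seen, Pearson r of log2(TPM + 1) ran from 0.743 to 0.966 over 21 pairs. After the genotype means were removed, these pairs had r from 0.323 to 0.913. Klf1 had r of 0.031 to 0.405 with the other 9 genes, and -0.598 to 0.138 once genotype means were removed. Bcl11a had r of 0.188 to 0.532 with the other 9 genes, and 0.138 to 0.797 once genotype means were removed, the highest with Epor. Gata2 had r of 0.031 to 0.745, and -0.423 to 0.603 once they were removed. The 10 libraries share 2 genotype groups and a fixed total per library, so these values are descriptions.

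**Figure D3:**
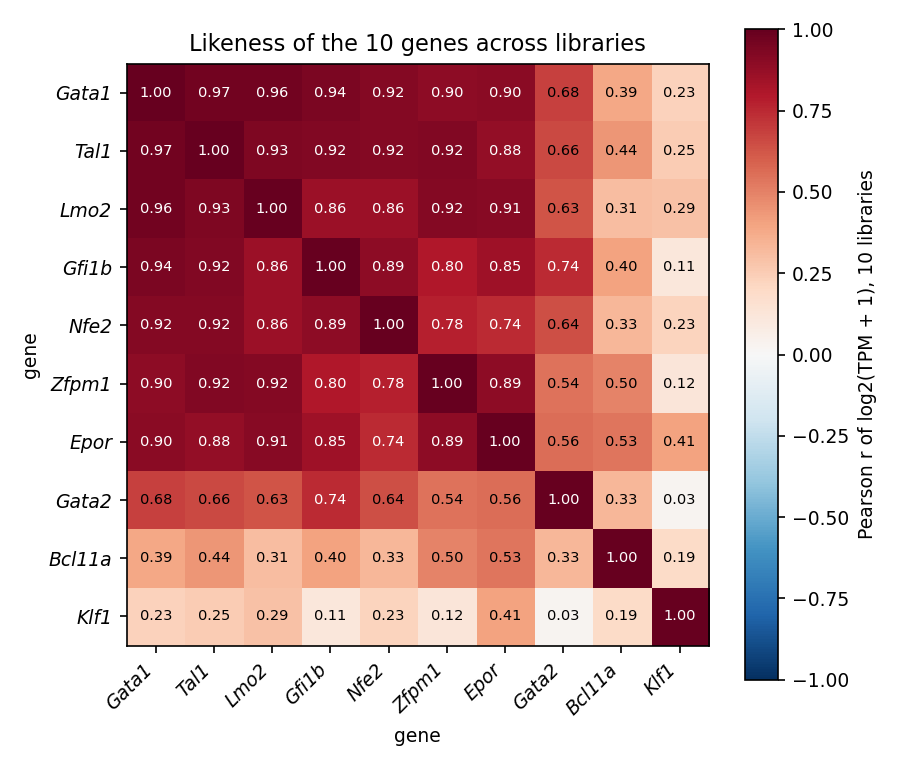
Pearson r of log2(TPM + 1) over 10 libraries for each pair of the 10 genes, with red for positive values. The block of 7 genes at the upper left holds values of 0.74 to 0.97, and the Klf1 row holds 0.03 to 0.41.

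By likeness over the 10 libraries among 13831 other genes, the 3 nearest to Gata1 were Cldn13 (r = 0.989), Epb42 (0.985) and Abcb10 (0.983). Those nearest to Tal1 were Abcb10 (0.991), Stom (0.991) and Btnl10 (0.987), and those nearest to Lmo2 were Aqp1 (0.983), Tspan33 (0.983) and Dhrs11 (0.982). Nfe2 was nearest to Stradb, Prkar2b and Tuba4a (r of 0.974 to 0.985), and Zfpm1 to Pcyt1b, Spire1 and Icam4 (0.972 to 0.987). For Gfi1b the nearest were Cd82, Nipa1 and Metap2 (r of 0.953 to 0.972), and for Epor they were Slc25a38, Ifrd2 and Kcnn4 (0.965 to 0.969). The nearest genes of the 3 remaining members were less close: Zfand6, Itgad and Gfod2 for Gata2 (r of 0.883 to 0.914), Atp1b2, Mknk2 and Gm6170 for Bcl11a (0.901 to 0.936), and Rgcc, Tspan15 and Mmp3 for Klf1 (0.836 to 0.892). These genes are the top of a ranking over 10 points each, so their r is high by selection.

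A single transcript carried nearly all of the signal of Gata1 (Gata1-201, 97.2% of its TPM) and Epor (Epor-201, 96.7%), and Klf1 has 1 annotated transcript. Neither Epor-201 nor the Klf1 transcript starts within 50 bases of the RefSeq start shown above. The Epor window ends before the start of Epor-201. Tal1-201, which starts at the upstream RefSeq start shown above, held 79.6% of Tal1 and Tal1-202 held 16.9%, while Zfpm1-201 held 76.7% of Zfpm1 and Zfpm1-204, a processed transcript, held 10.2%. Gata2-202, which starts at the upstream Gata2 start, held 51.6%, the coding transcript Gata2-203 held 27.4% and the retained-intron transcript Gata2-204 held 18.4%. Gfi1b was divided between Gfi1b-201 (49.4%), Gfi1b-204 (40.0%) and Gfi1b-202 (10.6%), and Lmo2 mainly between Lmo2-208 (63.8%) and Lmo2-203 (18.8%). Bcl11a was spread over Bcl11a-204 (35.7%), Bcl11a-201 (32.1%) and Bcl11a-202 (27.4%). Nfe2-201 held 53.5% of Nfe2 and Nfe2-205 held 28.7%. By genotype, Nfe2-205 held 21.6% ± 10.8 of Nfe2 in wild-type and 33.4% ± 11.0 in Mir324-null libraries (SD, n = 5 each), and these shares overlapped. Nfe2-210 went the other way, with 11.2% ± 9.26 in wild-type and 1.66% ± 2.03 in Mir324-null libraries, also with overlap. Whether these transcripts exchanged reads was not tested. Shares among transcripts that overlap in sequence are estimates of the authors' quantification.

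The wider network was divided in direction on TPM as deposited. Of 54 genes in 5 lists of partners and pathway genes, 51 were tested, 27 were higher and 24 lower in Mir324-null, and 0 had a limma adjusted p under 0.05. At an unadjusted limma p under 0.05, 6 were higher (11.8%) and 4 lower (7.84%). Of all genes tested, 4.28% were higher and 7.3% lower at that level. After rescaling without haemoglobin genes, 13 pathway genes were higher and 3 lower at that level, beside 1216 and 577 of all genes. On TPM as deposited, the median difference of the pathway genes was 0.031 on the log2(TPM + 1) scale. Partners and co-repressors of the GATA1 and TAL1 complexes were divided 6 higher and 6 lower, and their smallest p was that of Tcf12, a partner of TAL1, with means of 27.2 ± 2.04 TPM in wild-type and 22.7 ± 3.40 TPM in Mir324-null mice (-0.26, limma adjusted p = 0.425). Of the progenitor and myeloid factors 3 of 9 were higher, among them Meis1, a homeobox factor of stem cells, at 3.78 ± 0.509 and 5.08 ± 1.14 TPM (0.33, adjusted p = 0.425).

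Of the 6 genes for NF-E2 dimer partners and their relatives, 4 were higher, and Maff, a small Maf protein, had means of 5.35 ± 2.07 TPM in wild-type and 3.27 ± 0.740 TPM in Mir324-null mice (-0.53, limma adjusted p = 0.38). Among 8 globin-switching and late erythroid factors, 5 were higher, and Foxo3, a forkhead factor active late in red cell maturation, was at 32.1 ± 4.32 and 39.5 ± 1.69 TPM without overlap (0.30, limma adjusted p = 0.337). In Epo signalling 9 of 16 genes were higher. Socs2, a feedback inhibitor of cytokine receptors, averaged 12.2 ± 2.26 TPM in wild-type mice and 6.90 ± 0.573 TPM in Mir324-null mice, lower without overlap (-0.73, limma adjusted p = 0.277). It was opposite in sign to Epor, while Tfr2 of the same list was higher without overlap, at 7.87 ± 1.79 and 11.8 ± 1.24 TPM (0.55, limma adjusted p = 0.291). Foxo3, Socs2 and Tfr2 were the only tested pathway genes without overlap, against 0.881% of all genes higher and 1.06% lower. Epo itself was listed at 0 in every library, and Erfe and Mecom fell under the filter.

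Markers of red cells were higher alongside the members. All 21 tested erythroid markers (Ahsp was not found by symbol) were higher in Mir324-null, with a median of 0.48. Of them, 17 were at an unadjusted limma p under 0.05 and 0 at an adjusted one, while 4.28% of all genes tested were higher at that unadjusted level. The summed level of the 21 markers ran from 113731 to 200842 TPM in wild-type and from 161224 to 265921 TPM in Mir324-null libraries. Most of that sum was globin and so repeats the haemoglobin share given above. In wild-type, Hba-a1, Hba-a2, Hbb-bs and Hbb-bt averaged 58148, 23382.5, 45109 and 28799 TPM, and Alas2, the next highest, averaged 707 TPM. The list joins red cell markers with target genes of GATA1 or KLF1, so its mean is not independent of the members. A fit with that mean as a covariate cannot tell more red cells from more of the factors. With this mean log2(TPM + 1) as a covariate, 1 of the 10 members, Klf1, had an unadjusted limma p under 0.05 (1.56, limma adjusted p = 0.638). In that fit 6.13% of all genes tested were higher and 0.99% lower at this level, so 1 of 10 lay near the share of all genes. The median of the 10 was then 0.14 and that of all genes 0.096, with Epor at 0.27, Gata1 at 0.14 and Zfpm1 at -0.033.

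Megakaryocyte and platelet markers were higher as well, 11 of 11, with 10 at an unadjusted limma p under 0.05, and their sum ran from 1238 to 1851 TPM in wild-type and from 1450.4 to 2960 TPM in Mir324-null. Of 8 mast cell and basophil markers 5 were tested and all were higher, 1 at an unadjusted p under 0.05, while the mast cell proteases Mcpt4, Tpsb2 and Cma1 were under the filter. Their sum was 121 to 201 TPM in wild-type and 151 to 246 TPM in Mir324-null. At an unadjusted limma p under 0.05, 4.28% of all genes tested were higher. The part of either cell type in the levels of Gata1, Gata2, Nfe2, Gfi1b and Zfpm1 was not tested.

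Other cell types showed other directions. Plasmacytoid dendritic markers were higher in 5 of 6 (sums of 86.1 to 123 and 84.1 to 159 TPM) and stem and progenitor markers in 5 of 6 (59.9 to 72.6 and 62.2 to 78.0 TPM). B cell precursor markers were lower in 8 of 8, 5 of them at an unadjusted limma p under 0.05, with sums of 453 to 565 and 251 to 497 TPM, and endothelial markers were lower in 6 of 6 (80.8 to 101 and 58.9 to 88.5 TPM). Neutrophil markers were lower in 7 of 8, none at an unadjusted p under 0.05. Cartilage chondrocyte markers were lower in 6 of 7, 5 of them at an unadjusted limma p under 0.05, with a median of -0.66. Osteoblast and osteocyte markers were lower in 10 of 10, 9 of them at an unadjusted limma p under 0.05, with a median of -0.90 and sums of 6225 to 14721 and 3525 to 7315 TPM. Over all genes tested, 4.28% were higher and 7.3% lower at that level. TPM values are shares of a fixed total, and the part of these other RNAs in the members' levels was not tested beyond the scalings plotted for each gene.

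**Figure D4:**
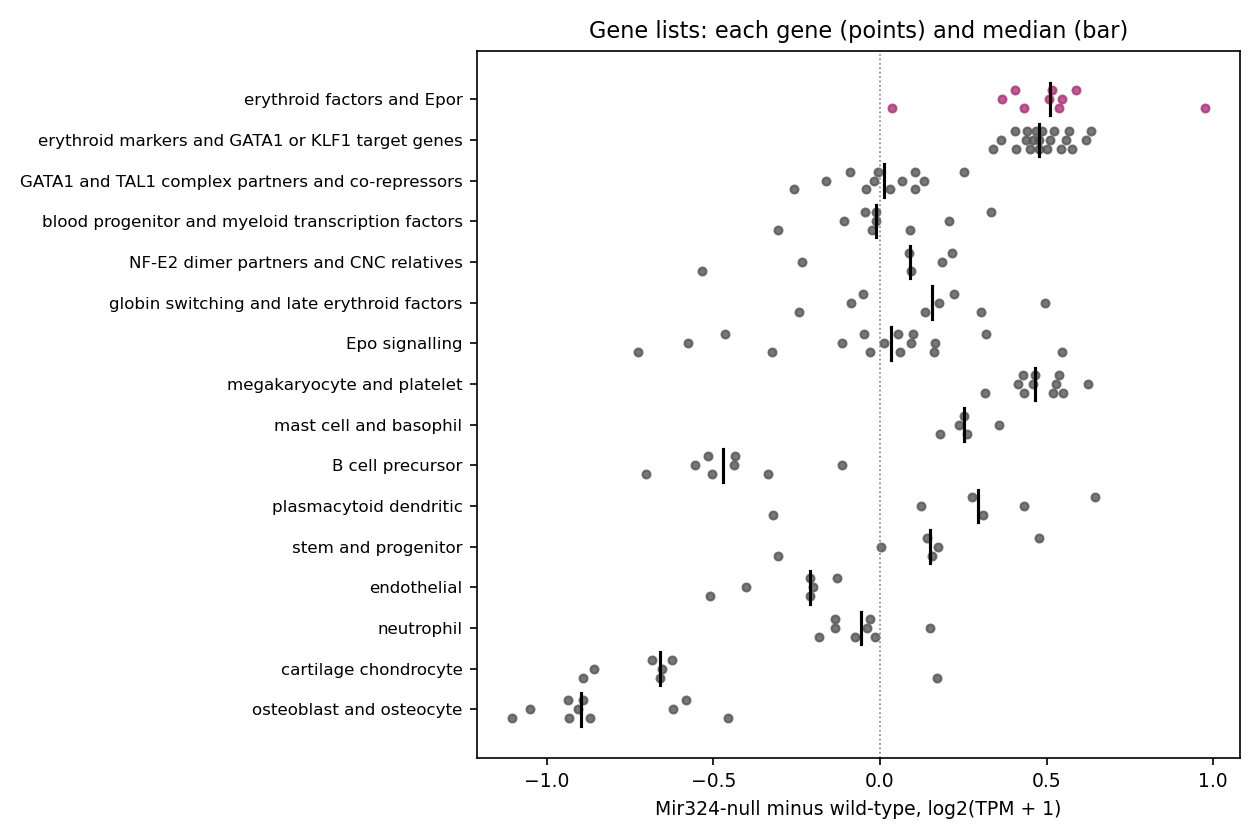
Difference between genotypes on the log2(TPM + 1) scale for every tested gene of each list (points) with the list's median (bar). The 10 members (top row) lie between 0.036 and 0.98, the erythroid and megakaryocyte rows lie wholly above 0, and the osteoblast row lies wholly below 0.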

How the data were processed

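The authors deposited 1 table of TPM values with a column for each of 10 mice and 116912 versioned Ensembl mouse transcripts. The submitters' processing notes name kallisto, DESeq2 and GRCh38, without versions or roles, although the identifiers are of mouse. TPM values hold no read counts, so depth and counting error are unknown. Identifiers were matched without version to GENCODE M21 (GRCm38); 1472 transcripts, with 0.275% to 0.356% of TPM per library, did not match and are in no gene sum.

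Gene sums were analysed as log2(TPM + 1), which understates changes of low genes, for the 13841 genes averaging 1 TPM or more. Genotypes were compared with limma 3.58.1 in R 4.3.3 (lmFit, eBayes with trend), two-sided, without covariates, with Benjamini-Hochberg adjustment over all genes tested and a threshold of 0.05. Single genes also had a two-sided exact permutation test over 252 divisions. The fit was tested on simulated data. Members and lists were chosen with earlier results of these data known.

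Named were the 10 members, their 3 nearest genes by Pearson r, transcripts with at least 10% of a member's TPM, and the gene with the smallest p in each pathway list. Tfr2 was added as a further pathway gene without overlap. Alternatives were another pseudocount, 2 other filters, 3 scalings, eBayes without trend, coding transcripts only, a replicate block, an erythroid covariate and leaving out each library. Sequences are from RefSeq (GRCm38.p6), with promoter windows for 8 of the 10 members; 3′ UTRs are from GENCODE M21.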

Additional observations from a re-analysis of the deposited data

Results flagged for a closer look

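Bcl11a in Mir324-null replicate 5 was at 12.3 TPM, 3.7317 on the log2(TPM + 1) scale. It was the lowest of its genotype, and its gap to the next mouse was 0.729 of the group's range, above Dixon's critical value of 0.71 for 5 samples. This was 1 of 22 groups examined, and chance flags about 1 group in 20.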

How the results depend on the processing

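Gata1, Gata2, Klf1, Tal1, Nfe2, Gfi1b, Lmo2 and Epor were higher in Mir324-null under all 20 alternatives, and 0 members had an adjusted p under 0.05 in any of them, leaving out single libraries included (0 to 0). With the erythroid covariate, 1 member and 3 pathway genes had an unadjusted p under 0.05, beside 849 higher and 137 lower over all genes. In that fit Zfpm1 (-0.033) and Bcl11a (-0.079) were lower in Mir324-null. Without wild-type replicate 2, Bcl11a was at -0.014 and Gata1 minus Gata2 at -0.0046. Rescaling without haemoglobin genes gave 16 pathway genes at an unadjusted p under 0.05, 13 higher and 3 lower, while over all genes it moved 592 higher and 1011 lower to 1216 and 577; median ratio scaling gave 9 higher and 4 lower and quantile normalization 8 and 5. The cause of these shifts was not tested. Leaving out each library gave 7 to 8 members at an unadjusted p under 0.05, not always the same ones. Klf1 was lost without any of 6 libraries, and Gata2 gained without wild-type replicates 2 or 3 or Mir324-null replicate 4. Those fits gave 7 to 14 pathway genes (14 without wild-type replicate 3), beside 441 to 680 higher and 620 to 1355 lower over all genes. In them Bcl11a ran from -0.014 to 0.114 and Gata1 minus Gata2 from -0.0046 to 0.230. Same-numbered mice did not deviate together (r of -0.144 to 0.056), and the labels state no pairing. Low r values cannot exclude a pairing by litter or preparation. A replicate block gave 9 members and 7 pathway genes at an unadjusted p under 0.05, beside 459 higher and 709 lower of all 13841 genes. It gave 0 members at an adjusted p under 0.05, and an unchanged Gata1 minus Gata2 of 0.115 (exact sign-flip p = 0.1875). Depth is unknown, so the precision of low genes such as Gata2 and Bcl11a cannot be given from counts.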

Other observations

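A search beside Klf1 concerns transcripts that are in the deposited table but not in the annotation used, and so in no gene sum. One of them, ENSMUST00000239392, was noticed by eye because it was low in mice where Klf1 was high. A first rule, the lowest Pearson r with Klf1 among the 218 such transcripts with a mean of at least 1 TPM, ranked it number 3 and picked another (r = -0.805). A second rule, the highest r of the sum of Klf1 and the transcript with the mean of the other 9 members, was written after that and picked it, so 2 rules were tried and its selection is no test. The transcript was at 19.7, 51.9, 91.6, 40.3 and 62.5 TPM in the wild-type replicates and at 20.8, 90.7, 4.47, 76.3 and 123 TPM in the Mir324-null replicates, with r = -0.727 to Klf1 on the log2(TPM + 1) scale. The sum with Klf1 was 86.2 ± 19.3 TPM in wild-type and 133 ± 14.8 TPM in Mir324-null (SD, n = 5 each), a difference of 0.64 on the log2(TPM + 1) scale. The sum had r = 0.934 with the mean of the other 9 members, against 0.219 for Klf1 alone and 0.618 for the next best transcript. The second rule picked the highest of these r, so 0.934 was high by selection and says nothing on the transcript's gene. The same search also gave high values for other members. The rise was smaller for each of them than for Klf1. For Bcl11a (from 0.454 to 0.923) and Gata2 (from 0.592 to 0.910) the transcripts did not run opposite to the gene. Nor did they for Zfpm1 (from 0.811 to 0.879), Gfi1b (from 0.846 to 0.941) and Lmo2 (from 0.919 to 0.958). For Epor (from 0.921 to 0.983) the transcript had r = -0.018 with the gene. For Nfe2 (r = -0.693, from 0.850 to 0.902), Tal1 (r = -0.624, from 0.928 to 0.957) and Gata1 (r = -0.348, from 0.927 to 0.955) the transcripts did run opposite. The gene of this transcript is not named by any table used here, and whether Klf1 reads were shared with it was not tested.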
